A study of Mus musculus with 8 samples.

Results

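The pumps that fill the endoplasmic reticulum (ER) with calcium, the channels that release it and the proteins that admit calcium once the store is empty were measured in brown adipose tissue (BAT) of mice. Members were taken by gene symbol and not by their values, though with earlier results of these data known. They are the ER calcium genes expected in brown adipocytes themselves in place of the skeletal muscle isoforms. They were Atp2a2, Atp2a3, Ryr2, Itpr1, Itpr2, Itpr3, Stim1, Stim2, Orai1 and Orai3, which is 10 of the 33641 genes and 59 of the 105129 transcripts with values. All 10 passed the filter on low counts and were among the 14851 genes tested.

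RNA-seq of interscapular BAT asked which transcripts depend on HuR, the RNA-binding protein that Elavl1 encodes. The C57BL/6 mice were 28 weeks old, with 3 libraries labelled WT (genotype wild-type: A7, A8 and A12) and 5 labelled HuR KO (genotype adipo-HuR-/-, with A24 to A26, A29 and A31). In the deletion, floxed HuR alleles are recombined by a Cre transgene under the adiponectin promoter, so that adipocytes are meant to lose HuR while the vessels, nerves and immune cells of the tissue keep it. The controls were littermates and could carry Cre or floxed alleles, but not the combination, and which of these each control carried is not given in the labels. The labels do not say that each library came from a separate animal, so p-values measure the spread between these libraries, which may be technical.

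Each library was given as estimated counts per transcript, which were summed for each gene. The WT-labelled totals ran from 50673814 counts in A12 over 51751002 in A8 to 60622522 in A7. Among the libraries labelled HuR KO, A24 had 18264754 and A25 had 17558090 counts, fewer than any other library. The remaining totals were 67498055 in A26, 50893173 in A29 and 58727739 in A31. Levels are given as CPM (counts scaled to a fixed library total) after normalization by TMM, a scaling that sets most genes equal between libraries, and as mean ± SD over libraries.

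Elavl1 itself was read first as a check of the labels. Its level was 50.6 CPM in A7, 49.2 in A12 and 48.0 in A8, against 61.9 in A24, 61.3 in A29, 61.2 in A31, 47.3 in A25 and 43.4 in A26. It was not lower in the libraries labelled HuR KO (log2 fold change 0.16, SE 0.162, adjusted p = 0.667 by edgeR's quasi-likelihood test), and the groups overlapped. The sum covers the whole gene and all cells of the tissue, so it need not show a deletion within the gene in 1 cell type. The study's text also gives the larger of the 2 group sizes to the controls, whereas the labels give it to HuR KO. Groups are therefore called by their labels, and every direction below is HuR KO minus WT as labelled.

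The tissue label fitted its markers. All 10 brown adipocyte markers were detected in every library, and their summed level lay between 15348 CPM (A25) and 33159 CPM (A8). Fabp4, a fatty acid carrier of adipocytes, had the highest mean of them over the 8 libraries, at 10150 ± 3902 CPM in libraries labelled WT and 8799 ± 1588 CPM in those labelled HuR KO. Ucp1, the uncoupling protein that defines brown fat, reached 8588 ± 3388 and 7855 ± 2459 CPM (log2 fold change −0.13, SE 0.350, adjusted p = 0.889, edgeR), and the hormone gene Adipoq 592 ± 270 and 566 ± 180 CPM.

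Skeletal muscle transcripts divided the libraries in another way. For 24 genes of the contractile apparatus the summed level reached 4288 CPM in A7 and 2670 in A8 but 61.6 in A12, and 479 in A31, 57.2 in A24, 53.7 in A29, 50.5 in A26 and 38.2 in A25. A7 and A8 thus stood far above the other libraries, A31 stood between, and A12 was like the remaining libraries labelled HuR KO. Myh4, a fast muscle myosin and the gene of the list with the highest mean, was at 1048 CPM in A7, 457 in A8 and 106 in A31, below 1 CPM in A12 and A24, and at 0 in the remaining libraries. Acta1, the skeletal muscle actin, was at 619 CPM in A7, 320 in A8 and 54.0 in A31, and below 1 CPM in each other library. In all, 24 of 24 had a log2 fold change below 0 and 3 were called lower by edgeR's quasi-likelihood test (Myh7, Myl1 and Myl2), with 21 at an unadjusted p under 0.05. Of all 14851 genes tested, 2531 reached such a p and 0.707% were called in either direction. The calls were not stable. Limma voom with quality weights per library (limma voom for short below) made 0 of 24, DESeq2 8 and the likelihood ratio test 9. Of all genes these called 1.06%, 5.51% and 4.41%. The quasi-likelihood calls held in 7 of 17 other settings for Myh7, 6 of 21 for Myl1 and 6 of 18 for Myl2. The log2 fold changes of these genes were −7.86, −2.28 and −7.71. Without the GC trend, where no call held, they were −7.89, −2.21 and −7.69. Over the other settings they ran from −8.43 to −2.37, from −2.71 to −0.71 and from −8.29 to −3.08. In bulk tissue, fewer cells of a type and less RNA per cell of that type cannot be told apart.

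Brown adipocytes pump calcium into the ER with SERCA ATPases and let it out through IP3 receptors and ryanodine receptors. Cycling of calcium across this membrane consumes ATP and has been described as a source of heat that does not need UCP1. When the store empties, STIM proteins in the ER membrane sense the loss and open ORAI channels in the plasma membrane.

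In this set of pumps, release channels and entry genes, no gene passed the threshold between the labelled groups, an adjusted p of at most 0.05 and a fold change of at least 1.5. That was 0 of 10 by edgeR's quasi-likelihood test, against 105 of 14851 genes, or 0.707%, in either direction (36 higher and 69 lower). The likelihood ratio test of edgeR, limma voom with quality weights and the Wald test of DESeq2 called 0 of 10 as well, against 4.41%, 1.06% and 5.51% of all genes. An unadjusted p under 0.05 was reached by 2 of 10 (Ryr2 and Orai1), against 2531 of the 14851 genes. The groups did not overlap in 0 of 10, against 11.5% of all genes. Of the 10, 5 had a log2 fold change below 0 and 5 above 0. Their median was −0.04 and that of all genes 0.00098, and the medians of the absolute log2 fold change were 0.32 and 0.27. A share this near that of all genes is no result about the set.

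**Figure D1:**
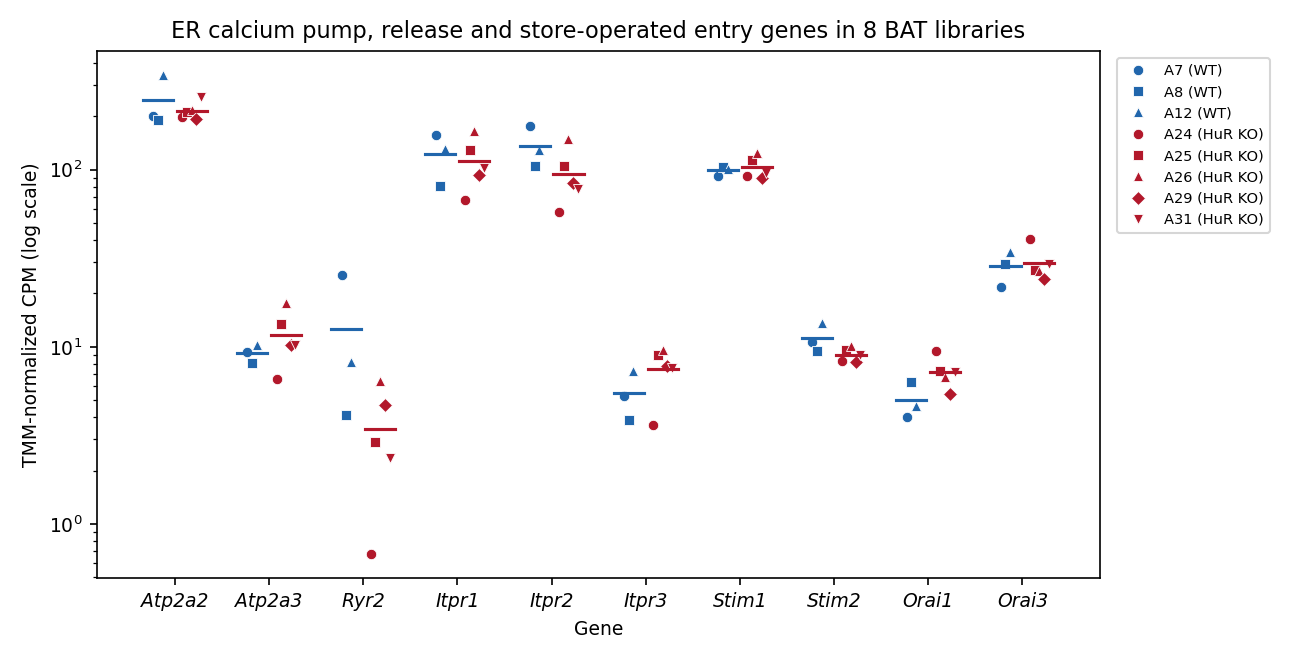
Levels of the 10 genes in each library, in TMM-normalized CPM on a log scale. Each symbol is a library (blue, 3 labelled WT; red, 5 labelled HuR KO) and each bar the mean of its group. For every gene the symbols of the 2 groups overlap, and Ryr2 spreads the widest, from 0.677 CPM in A24 to 25.5 CPM in A7.

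The intervals say how far this design can see. For 6 of 10 genes (Atp2a2, Atp2a3, Itpr1, Stim1, Stim2 and Orai3) the 95% interval of the log2 fold change lay between −1 and 1, so that a change of more than 2-fold in either direction was outside it. For Ryr2, Itpr2, Itpr3 and Orai1 the interval reached beyond a 2-fold change on 1 side.

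**Figure D2:**
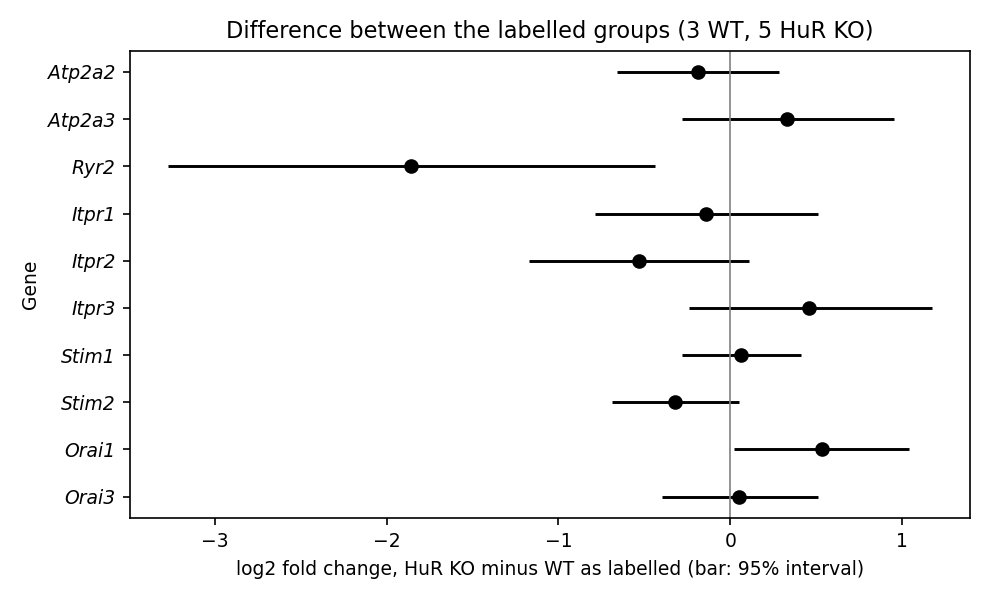
Log2 fold change of each gene, HuR KO minus WT as labelled (points), with a 95% interval (bars) derived from the F statistic of edgeR's quasi-likelihood test, 3 against 5 libraries. The intervals are not adjusted for the number of genes. The interval of Stim1 is the narrowest, from −0.28 to 0.41, and that of Ryr2 the widest, from −3.27 to −0.44.

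Per length, the set covered a wide range. TPM values, which divide counts by transcript length and scale each library to the same total, placed Atp2a2 first at 74.1 ± 21.6 TPM over all 8 libraries, then Stim1 (39.8 ± 12), Itpr1 (30.3 ± 15.0), Orai3 (20.1 ± 3.88) and Itpr2 (17.2 ± 7.41). Orai1 (5.47 ± 1.66), Stim2 (4.96 ± 1.74) and Atp2a3 (3.82 ± 1.69) were lower, and Itpr3 (1.09 ± 0.471) and Ryr2 (0.611 ± 0.794) were the lowest. Atp2a2 was above Stim1, Itpr2 above Orai1 and Atp2a3 above Itpr3 in 8 of 8 libraries. The TPM of Itpr1 includes short forms, to which division by length gives more weight. In A7, Itpr1-206 (939 bases) had 11.1 CPM and the main form Itpr1-205 (9761 bases) 123 CPM. The place of Itpr1 above Orai3 rests on such short forms. Neighbours that differed by less than their spread were Stim1 and Itpr1, Itpr1 and Orai3, Orai3 and Itpr2, Orai1 and Stim2, Stim2 and Atp2a3, and Itpr3 and Ryr2, and the order of Orai1 over Stim2 held in only 5 of 8 libraries.

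Atp2a2 encodes SERCA2, the ER calcium pump of most cell types, and lies on chromosome 5 from 122453513 to 122502225 on the minus strand (GRCm38, GENCODE M21, as for all positions here). Its level was 344 CPM in A12, 202 in A7 and 192 in A8, and 259 in A31, 217 in A26, 211 in A25, 199 in A24 and 193 in A29. A12 was the highest library and A8 the lowest, both labelled WT, so the other group lay within their range. Between the labelled groups Atp2a2 had a log2 fold change of −0.19 (SE 0.213, 95% interval −0.66 to 0.28, adjusted p = 0.702, edgeR) which turned to 0.13 without A12 and was −0.75 without A7, A8 and A31 (adjusted p = 0.313, edgeR). With total counts as the only scaling it was 0.03, where the median of all genes moved to 0.23.

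Atp2a3 encodes SERCA3, a pump known from blood and epithelial cells, at chromosome 11, 72961169 to 72993044, plus strand. It was at 10.3 CPM in A12, 9.39 in A7 and 8.05 in A8, and at 17.6 in A26, 13.5 in A25, 10.3 in A29, 10.2 in A31 and 6.54 in A24. A25 and A26 were above all others and A24 below, and the groups overlapped (log2 fold change 0.33, SE 0.277, 95% interval −0.28 to 0.95, adjusted p = 0.592, edgeR). The log2 fold change fell to 0.13 without A26 and to 0.14 without the GC trend, and rose to 0.55 with total counts only. Per length, SERCA2 RNA exceeded SERCA3 RNA in 8 of 8 libraries, with a TPM ratio between 12.2 (A26) and 34.2 (A12).

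The third pump, the skeletal muscle isoform Atp2a1, gives the contrast. Its TPM ratio to Atp2a2 reached 2.89 in A7, 1.84 in A8 and 0.266 in A31, but 0.000669 in A12 and at most 0.00593 in A24, A25, A26 and A29. The muscle pump thus outnumbered SERCA2 only in the pair of WT-labelled libraries with high contractile transcripts. SERCA2 did not share this division, since A12, where Atp2a1 was near 0, had the most Atp2a2.

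Atp2a2 makes forms that end in different exons. Atp2a2-201 is SERCA2b, the widespread form (1044 codons before its stop codon), and its last exon spans 122456340 to 122457426. Atp2a2-202 is SERCA2a, the form known from heart and slow muscle (998 codons), which leaves that exon early and ends in a last exon from 122453514 to 122454304. Atp2a2-203, annotated as a target of nonsense-mediated decay, keeps the coding end of Atp2a2-201 and shares the last exon of Atp2a2-202. The forms part where the following 30 bases of RNA-sense sequence (minus strand) diverge, shown because the estimate of SERCA2a against SERCA2b turns on this junction. Lower case marks the 16 shared bases at chr5:122457303-122457318, and capitals mark the 14 bases of each form, at chr5:122457289-122457302 for Atp2a2-201 and chr5:122454291-122454304 for Atp2a2-202, where they end with its stop codon.
Atp2a2-201: tacctggaacaacccgGTAAAGAGTGTGTG
Atp2a2-202: tacctggaacaacccgCAATACTGGAGTAA

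The estimated share of Atp2a2-202 in the gene total was 43.9% in A12, 42.9% in A7 and 41.6% in A8, and 38.2% in A26, 37.8% in A31, 34.2% in A25, 33.9% in A24 and 23.6% in A29. The groups did not overlap, at 42.8 ± 1.16% in libraries labelled WT and 33.5 ± 5.89% in those labelled HuR KO. A12, with hardly any muscle transcripts, had the highest share, and A31, with some, was within the range of its own group. The part of muscle RNA in this share was not tested. This form was singled out after its values were seen, so its share of the gene total was given no test of its own. In the fit over all transcripts its level had a log2 fold change of −0.59 (SE 0.292, adjusted p = 0.675, edgeR), with overlapping groups. Among the 37 transcripts of the set for which a share could be formed, 2 had groups that did not overlap (Atp2a2-202 and Atp2a3-205, a non-coding form), which is 5.41% against 5.39% of the transcripts of all genes, so the count is no more than the background. In the test that had been laid down, on the most abundant form of a gene, Atp2a2-201 held 43.9 ± 5.48% against 53.5 ± 6.40% (two-sided exact permutation test over 56 splits, p = 0.107, 0.429 after adjustment over 4 genes, n = 3 and 5, where the smallest p possible is 0.0357). Out of the protein-coding transcripts alone its share was 50.5 ± 2.78% against 61.4 ± 6.82%, groups that did not overlap, and the same test gave that smallest p and 0.143 after adjustment. The protein-coding forms of the gene are Atp2a2-201 and Atp2a2-202 alone, so this share is what Atp2a2-202 leaves. It repeats the form singled out above, has no count over all genes beside it, and adds no separate support. Every base of Atp2a2-202 also lies in Atp2a2-201 or Atp2a2-203, 0 of its 3984 bases being its own, so that only reads across its junctions set it apart, and the error of this division is not part of the values.

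**Figure D3:**
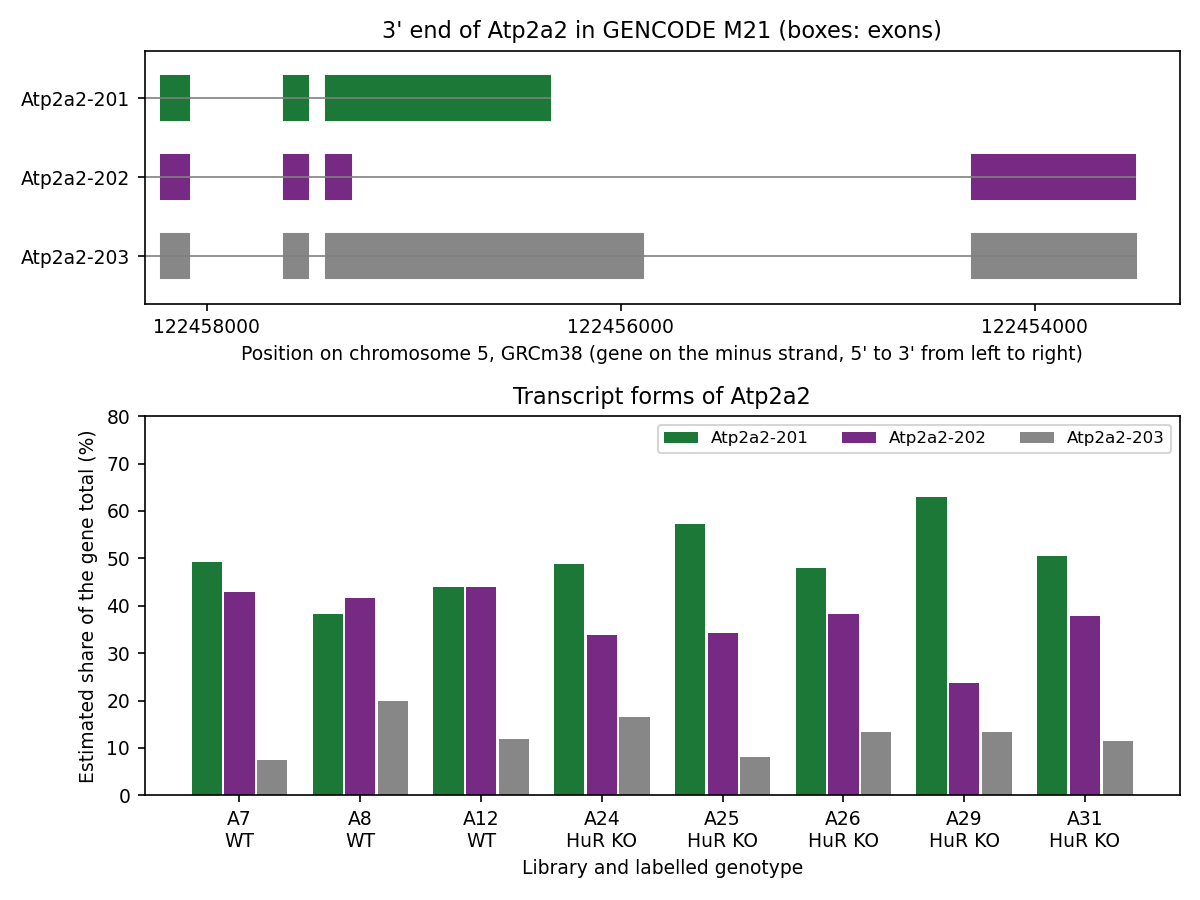
Top, exons at the 3′ end of the Atp2a2 forms on chromosome 5 (GRCm38), drawn to scale with the direction of transcription from left to right. Bottom, estimated share of each form in the gene total in each library, in percent. Atp2a2-202 holds between 41.6% and 43.9% in the 3 libraries labelled WT and between 23.6% and 38.2% in the 5 labelled HuR KO.

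Ryr2 encodes the ryanodine receptor of heart and brain and lies on chromosome 13, 11553102 to 12106945, minus strand. It was at 25.5 CPM in A7, 8.19 in A12 and 4.10 in A8, and at 6.45 in A26, 4.70 in A29, 2.89 in A25, 2.36 in A31 and 0.677 in A24. A7 was the highest of all libraries, A24 the lowest with a count of 12, and A26 and A29 lay above A8, so that the groups overlapped. The log2 fold change of −1.86 was the largest of the 10 (SE 0.638, 95% interval −3.27 to −0.44) and its adjusted p was 0.172 (edgeR), between 0.0719 and 0.568 over 21 other settings. Much of its size rested on A7, and without this library it was −0.83 (adjusted p = 0.568, edgeR). Without A8 it was −2.27, and without A8 and A24 together −2.03 (adjusted p = 0.0725, edgeR), an exclusion chosen after the data were seen.

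A7 also had the most contractile transcripts. A8, with 2670 CPM of these against 4288 in A7, had less Ryr2 than A12, where they summed to 61.6 CPM. Ryr1, the ryanodine receptor of skeletal muscle, was at 78.5 CPM in A7, 22.7 in A8 and 7.16 in A31, and below 1 CPM in every other library. With the contractile score as a covariate, the log2 fold change of Ryr2 was −1.51 (adjusted p = 0.511, edgeR). The part of muscle RNA in the level of Ryr2 in A7 was not tested beyond this. The genes most like Ryr2 over the 8 libraries, among 11849 genes with a mean of at least 1 CPM, were Fyco1, Dennd1b and Vps13a, each with a Pearson r of 0.98 in log2 CPM. All are described by the same 8 libraries, and no test was attached to these values. Fyco1 followed the same order at its ends, from 94.6 CPM in A7 to 30.6 CPM in A24.

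The IP3 receptors open on IP3, the messenger that phospholipase C makes below adrenergic and other receptors. Itpr1 encodes IP3 receptor type 1 and lies on chromosome 6, 108213096 to 108551109, plus strand. It was at 157 CPM in A7, 131 in A12 and 81.4 in A8, and at 166 in A26, 129 in A25, 102 in A31, 93.0 in A29 and 67.7 in A24. Both groups spread over about the same range (123 ± 38.4 and 112 ± 37.4 CPM). Its log2 fold change was −0.14 (SE 0.293, 95% interval −0.79 to 0.51, adjusted p = 0.850, edgeR), and it turned to 0.07 without A7 and to 0.05 with total counts only.

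Itpr2, the type 2 receptor, lies on the same chromosome at 146108299 to 146502223, minus strand. It was at 177 CPM in A7, 129 in A12 and 105 in A8, and at 150 in A26, 105 in A25, 84.2 in A29, 77.9 in A31 and 57.9 in A24. A24, A29 and A31 lay below the WT-labelled libraries, A25 was level with the lowest of them and A26 was within them. Its log2 fold change of −0.53 (SE 0.288, 95% interval −1.17 to 0.11) had an adjusted p of 0.380 (edgeR), and without A7 it was −0.31.

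Itpr3, the type 3 receptor and known from epithelial cells, was the scarcest of the 3 at chromosome 17, 27057304 to 27122223, plus strand. It was at 7.31 CPM in A12, 5.28 in A7 and 3.85 in A8, and at 9.59 in A26, 9.01 in A25, 7.84 in A29, 7.57 in A31 and 3.61 in A24. Of the libraries labelled HuR KO all but A24, the lowest of the 8, were above A12 (log2 fold change 0.46, SE 0.317, 95% interval −0.24 to 1.17, adjusted p = 0.504, edgeR). Without A12 the log2 fold change was 0.72, and without A8 0.27. Per length, Itpr1 exceeded Itpr2 by a TPM ratio of 1.15 to 2.17 in 8 of 8 libraries, and Itpr2 exceeded Itpr3 by 9.71 to 31.3. The ratio of Itpr1 to Itpr2 includes the short forms of Itpr1. By the main forms alone the order turned in A8. There Itpr1-205 had 66.6 CPM over 9761 bases and Itpr2-202 had 98.6 CPM over 11679 bases. With the other long coding forms added, Itpr1-201 (9870 bases) and Itpr2-201 (8331 bases), the order turned in A7 as well. In A7, Itpr1-205 had 123 CPM and Itpr1-201 19.1, against 107 for Itpr2-202 and 69.0 for Itpr2-201.

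In all 4 release channel genes, A8 was the lowest of the libraries labelled WT and A24 the lowest of those labelled HuR KO. Their transcripts are long, at 16814 bases for Ryr2, 9761 for Itpr1, 11679 for Itpr2 and 8990 for Itpr3 in the most abundant form, longer than those of at least 96.9% of genes. The 629 genes tested with such transcripts of at least 8000 bases lay low in the same libraries, with a median log2 deviation from the mean of all libraries of −0.28 in A8 and −0.52 in A24, against 0.27 in A12, 0.26 in A7, 0.25 in A26, 0.11 in A25, −0.04 in A29 and −0.05 in A31. The 3631 genes under 2000 bases were turned the other way, with 0.22 in A8 and 0.29 in A24, and −0.16 in A7 and −0.17 in A12. How much of the spread of the release channels follows transcript length was not tested. Without A8 and A24, the log2 fold changes of Itpr1, Itpr2 and Itpr3 were −0.23, −0.55 and 0.43.

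Stim1 encodes the main calcium sensor of the ER membrane and lies on chromosome 7, 102267806 to 102437319, plus strand. It was the steadiest gene of the set, at 104 CPM in A8, 101 in A12 and 92.1 in A7, and at 124 in A26, 114 in A25, 96.2 in A31, 91.8 in A24 and 90.3 in A29. The libraries labelled HuR KO lay on both sides of the others. Stim1 had a log2 fold change of 0.06 (SE 0.155, 95% interval −0.28 to 0.41, adjusted p = 0.878, edgeR), which leaves changes of more than 2-fold outside its interval, and it turned to −0.05 when each library's trend on GC content was removed.

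Stim2, the sensor that responds to smaller losses of calcium, lies on chromosome 5, 53998499 to 54121057, plus strand. It was at 13.6 CPM in A12, 10.6 in A7 and 9.47 in A8, and at 10.1 in A26, 9.54 in A25, 8.94 in A31, 8.35 in A24 and 8.22 in A29. A24, A29 and A31 were below every WT-labelled library, while A25 and A26 were above A8. Stim2 had a log2 fold change of −0.32 (SE 0.167, 95% interval −0.69 to 0.05, adjusted p = 0.369, edgeR), and −0.15 without A12. Per length, Stim1 exceeded Stim2 in 8 of 8 libraries, by a TPM ratio of 6.58 to 9.76.

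Orai1 encodes the pore of the store-operated channel and lies on chromosome 5, 123015074 to 123030456, plus strand. It was at 6.30 CPM in A8, 4.64 in A12 and 4.0 in A7, and at 9.47 in A24, 7.26 in A25, 7.18 in A31, 6.71 in A26 and 5.40 in A29. Only A29 of the libraries labelled HuR KO was below A8, and all were above A7 and A12. Orai1 had a log2 fold change of 0.53 (SE 0.232, 95% interval 0.02 to 1.04), with an unadjusted p of 0.0446 and an adjusted p of 0.279 (edgeR), and it kept its direction in 21 of 21 other settings, with adjusted p between 0.101 and 0.862. It was 0.14 after the trend on GC content was removed. Orai1 has a short main transcript of 1482 bases, and A24 and A8, the libraries with the highest short-transcript medians, were the highest of their groups. The part of transcript length in this difference was not tested.

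Orai3, a related channel found in mammals, lies on chromosome 7, 127769815 to 127775150, plus strand. It was at 34.4 CPM in A12, 29.4 in A8 and 21.7 in A7, and at 40.5 in A24, 29.2 in A31, 27.1 in A25, 26.9 in A26 and 24.3 in A29. A24 was the highest and A7 the lowest, with the rest between (log2 fold change 0.05, SE 0.206, 95% interval −0.40 to 0.51, adjusted p = 0.922, edgeR). Its direction held in only 13 of 21 other settings. Per length, Orai3 exceeded Orai1 in 8 of 8 libraries, by a TPM ratio of 3.78 in A8, 4.15 in A7 and 6.07 in A12, and of 3.09 to 3.83 in the libraries labelled HuR KO. Orai2, the remaining channel of the family, was scarce at 1.44 ± 0.880 and 1.68 ± 0.935 CPM.

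At the level of single transcripts, 38 of the 59 forms passed the filter and 0 passed the threshold in the quasi-likelihood test of edgeR, where only 4 of 41808 transcripts of all genes did (0.00957%). An unadjusted p under 0.05 was reached by 3 of 38 (Ryr2-201, Itpr2-202 and Atp2a3-205), and DESeq2 and limma were not run on transcripts. With so few calls in all, nothing about single forms is read from this count. The estimates of the pair of Ryr2 transcripts, 16814 and 16813 bases long and the same in coding length, divide between them with an error that is not part of the values. The level of Ryr2 was therefore read from their sum, and nothing is read from Ryr2-201 (log2 fold change −2.21, adjusted p = 0.580, edgeR).

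HuR binds U-rich and AU-rich stretches of RNA, often in the 3′ UTR. The letters ATTTA, a common core of AU-rich elements, were counted on the transcribed strand in the 3′ UTR of the most abundant form of each gene. Itpr1 held 5 in 1270 bases (3.94 per kb), Atp2a2 3 in 811 bases (3.70 per kb) and Stim2 8 in 2308 bases (3.47 per kb). These densities were above those of 88.5%, 86.9% and 84.9% of 12985 genes, whose median was 1.23 per kb. Itpr2 held 5 in 3372 bases, Ryr2 2 in 1414 and Stim1 1 in 1418, while Atp2a3, Itpr3, Orai1 and Orai3 held 0, and 67.1% of all genes held at least 1. The genes densest in ATTTA had log2 fold changes of −0.14, −0.19 and −0.32, none past the threshold. Those of Itpr2, Ryr2 and Stim1 were −0.53, −1.86 and 0.06. Those of Atp2a3, Itpr3, Orai1 and Orai3, which held 0, were 0.33, 0.46, 0.53 and 0.05. With each library's GC trend removed, the genes that held 0 were at 0.14, 0.24, 0.14 and −0.07. Itpr1, Atp2a2 and Stim2 were then at −0.11, −0.19 and −0.23, and Itpr2, Ryr2 and Stim1 at −0.50, −1.82 and −0.05. A relation between density and direction was not tested. A match is a description of the letters and not a binding site.

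The rest of the pathway was read from 7 lists of neighbours, which held 78 further genes tested. By edgeR's quasi-likelihood test, here as in the lists that follow, 1 of the 78 passed the threshold, Rnf170, and 9 had groups that did not overlap, or 11.5% against the same 11.5% of all genes. The median log2 fold change was −0.12 against 0.00098 for all genes, and the median absolute value 0.28 against 0.27. It was below 0 in 53 and above 0 in 25 of the 78, against 7413 and 7438 of all genes, and no test was made of this lean. An unadjusted p under 0.05 was reached by 19 of 78, against 2531 of all 14851 genes. The threshold was passed by 7 of 78 with the Wald test of DESeq2, 7 of 78 with the likelihood ratio test of edgeR and 2 of 78 with limma voom. Of all genes these called 818 (5.51%), 655 (4.41%) and 157 (1.06%). The 7, named after their values were seen, were the same in the first pair of tests (Rnf170, Ahcyl2, Jph2, Cracr2b, Esyt2, Plcb1 and Plce1), and limma voom called Rnf170 and Esyt2. Jph2 and Ryr1, both of the ryanodine receptor list and both below 0, also belong to the skeletal muscle triad and were highest in A7 and A8.

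Rnf170 encodes an ER ubiquitin ligase that takes part in the breakdown of activated IP3 receptors. It was at 17.7 CPM in A12, 16.8 in A8 and 15.5 in A7, and at 11.1 in A24, 10 in A29, 8.95 in A31, 8.07 in A25 and 8.06 in A26. All 5 libraries labelled HuR KO were below all 3 labelled WT, with a log2 fold change of −0.85 (SE 0.154, 95% interval −1.20 to −0.51, adjusted p = 0.0444, edgeR). The direction held in 21 of 21 other settings and the call in 8 of them, with adjusted p from 0.000105 to 0.287. The call was lost on leaving out any library but A24, and on removing the GC trend (adjusted p = 0.106, edgeR), although the log2 fold change stayed between −0.93 and −0.81 with 1 library left out and was −0.70 without the trend. It was also lost with total counts only (−0.63, adjusted p = 0.0978) and with the contractile score (−0.92, adjusted p = 0.182). The same held for the top transcript (−1.03, adjusted p = 0.0977) and without A24 and A25 (−0.89, adjusted p = 0.134, all edgeR).

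Among the other 13 tested partners of IP3 receptors 0 passed. Ahcyl1, which encodes the IP3 receptor inhibitor IRBIT, was the most abundant at 438 ± 56.6 CPM in libraries labelled WT and 546 ± 133 CPM in those labelled HuR KO, followed by Ssfa2, an IP3 receptor anchor, at 192 ± 28.2 and 262 ± 57.8 CPM. The enzymes and G proteins that lead to IP3 had 0 of 12 past the threshold and a median log2 fold change of −0.24. Gna11, a G protein alpha subunit, was at 73.7 ± 6.93 and 72.5 ± 6.36 CPM, and the phospholipase Plcg1 at 68.0 ± 9.14 and 58.3 ± 12.1 CPM. Plce1, a phospholipase C that Ras-like proteins activate, was at 21.6 ± 8.53 and 8.67 ± 2.63 CPM (log2 fold change −1.31, SE 0.292, adjusted p = 0.0725, edgeR). Its groups met at 12.8 CPM in A8 and A31 as rounded, and it is counted above among the genes whose groups did not overlap.

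Of the partners and regulators of ryanodine receptors 0 of 12 passed, with a median of −0.28. Groups did not overlap in Homer1, a scaffold protein (13.0 ± 0.777 and 10.2 ± 1.29 CPM, adjusted p = 0.283), and Camk2d, a calmodulin-dependent kinase (23.7 ± 3.77 and 18.4 ± 2.15 CPM, adjusted p = 0.261, both edgeR). Prkaca, the catalytic subunit of protein kinase A, was the most abundant gene of this list, at 281 ± 23.9 and 315 ± 36.4 CPM.

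The store-operated entry list, with Orai2 and regulators of STIM and ORAI, had 0 of 12 past the threshold, 4 with groups that did not overlap (33.3%, against 11.5% of all genes) and a median of 0.02. An unadjusted p under 0.05 was reached by 5 of 12, against 2531 of all 14851 genes. The threshold was passed by 2 with DESeq2, 2 with the likelihood ratio test (Cracr2b and Esyt2 in each) and 1 with limma voom (Esyt2), against 5.51%, 4.41% and 1.06% of all genes. These 4 were higher in libraries labelled HuR KO for Cracr2b, a cytosolic partner of ORAI1 (4.83 ± 0.993 and 9.32 ± 2.77 CPM, log2 fold change 0.95, adjusted p = 0.113), and Tmem110, an ER protein at contacts with the plasma membrane (44.3 ± 3.69 and 55.2 ± 3.59 CPM, log2 fold change 0.32, adjusted p = 0.257). They were lower for Esyt2, a tether of ER and plasma membrane (49.4 ± 4.92 and 32.4 ± 1.59 CPM, log2 fold change −0.61, adjusted p = 0.0612), and Sept7, a septin (61.2 ± 10.2 and 42.4 ± 5.04 CPM, log2 fold change −0.53, adjusted p = 0.130, all edgeR). None of the 4 passed by edgeR's quasi-likelihood test, and they lay on both sides of 0. Saraf, which turns store-operated entry off, had the highest mean of this list over the 8 libraries, at 104 ± 21.4 and 156 ± 32.3 CPM (log2 fold change 0.59, adjusted p = 0.201, edgeR), with overlapping groups. Ubqln1, a ubiquilin, was next at 125 ± 20.2 and 125 ± 12.1 CPM, and was above Saraf in A7 and A12.

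The calcium buffers and chaperones of the ER lumen had 0 of 15 past the threshold and a median of −0.13. Hspa5 (BiP) was at 269 ± 20.6 and 273 ± 33.5 CPM and calreticulin (Calr) at 257 ± 61.4 and 230 ± 52.1 CPM, both with overlapping groups. Calr3, a calreticulin known from testis, was lower in every library labelled HuR KO, at 8.14 ± 1.25 against 4.99 ± 1.17 CPM, but did not pass (adjusted p = 0.146, edgeR). Of the regulators of the ER pump 0 of 9 passed, with a median of −0.05. Tmbim6, an ER calcium leak protein, was at 374 ± 77.7 and 391 ± 46.9 CPM and S100a1, a calcium-binding partner of SERCA, at 348 ± 174 and 314 ± 46.1 CPM. The plasma membrane and Golgi pumps had 0 of 4 past the threshold and a median of −0.18, led by Atp2c1 of the Golgi at 30.5 ± 6.27 and 24.4 ± 2.17 CPM and Atp2b1 of the plasma membrane at 19.0 ± 3.26 and 15.8 ± 2.98 CPM.

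The triad genes of skeletal muscle include the muscle pump Atp2a1 and the muscle release channel Ryr1. The summed level of all genes in this list reached 824 CPM in A7 and 449 in A8 but 48.7 in A12, and 141 in A31, 51.9 in A26, 41.6 in A29, 36.1 in A25 and 35.3 in A24. The log2 fold change was below 0 in 12 of 12 with a median of −4.24, and 0 of 12 passed by edgeR's quasi-likelihood test. An unadjusted p under 0.05 was reached by 10 of 12, against 2531 of all 14851 genes. Past the threshold were 3 by DESeq2, 3 by the likelihood ratio test and 0 by limma voom, against 5.51%, 4.41% and 1.06% of all genes. Atp2a1 had the highest mean over the 8 libraries, which A7 and A8 carry, at 482 CPM in A7, 271 in A8 and 55.9 in A31, and below 1 CPM elsewhere. Srl (sarcalumenin) was above Atp2a1 in A12, A24, A25, A26 and A29, at 55.9 ± 15.8 and 39.2 ± 11.3 CPM. Its level was 73.6 CPM in A7, 55.7 in A31, 50.9 in A8, 46.1 in A26, 43.3 in A12, 33.3 in A29, 30.5 in A25 and 30.1 in A24. A7, A8 and A31 were the highest for Srl as for the sum, but stood less far above the other libraries.

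Markers of the other cell types of the tissue were read in 5 lists. The 8 endothelial markers had a median log2 fold change of 0.28 and all 8 were above 0, with 0 past the threshold, and their summed level lay between 400 CPM (A24) and 627 CPM (A29). Cdh5 was at 120 ± 24.6 and 134 ± 28.8 CPM and Kdr at 122 ± 15.2 and 124 ± 45.3 CPM. Smooth muscle and mural cell markers (median −0.07, led by Rgs5 at 248 ± 43.2 and 229 ± 14.1 CPM), macrophage markers (−0.06, led by Lyz2 at 47.1 ± 27.8 and 44.9 ± 14.8 CPM), markers of lymphocytes and other leukocytes (0.40, led by Ptprc at 3.37 ± 1.6 and 2.96 ± 0.562 CPM) and Schwann cell markers (0.01, led by Mbp at 44.5 ± 10.2 and 37.1 ± 4.57 CPM) also had 0 genes past the threshold by edgeR's quasi-likelihood test. In the leukocyte list every gene but Ptprc was below 1 CPM in each library. Over these 5 cell types, 6 of 36 markers had an unadjusted p under 0.05, against 2531 of all 14851 genes. Past the threshold were 1 with DESeq2, 1 with the likelihood ratio test (Des in each) and 0 with limma voom, against 5.51%, 4.41% and 1.06% of all genes. The groups did not overlap in 4 of 36 (11.1%, against 11.5% of all genes), which were Pecam1, Egfl7, Cd3e and Sox10, named after their values were seen. Slow muscle fibre markers had 2 of 6 past it, Myh7 and Myl2, which are the same genes as in the contractile list. All 6 had an unadjusted p under 0.05, and 4 passed with DESeq2, 4 with the likelihood ratio test (Myh7, Myl2, Tnnt1 and Tnni1 in each) and 0 with limma voom, where the same shares of all genes apply. The 6 markers summed to 135 CPM in A7 and 47.8 CPM in A8 against at most 6.99 CPM elsewhere. Which of these cell types supply the RNA of each calcium gene was not tested.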

How the data were processed

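The authors deposited estimated counts for each transcript of 8 BAT libraries, not normalized and not always whole. Reads had been mapped with CLC Genomics Workbench, per the methods of the study. The program that wrote the counts, the annotation release and the use of strand are not given in the sources used here, so genes that overlap on opposite strands cannot be told apart. Counts were summed by gene symbol and rounded. Genes were kept by filterByExpr, normalized by TMM and tested with edgeR 4.0.16 (glmQLFit and glmQLFTest, 3 against 5 libraries) in R 4.3.3, with Benjamini-Hochberg adjustment over 14851 genes. Alternatives used DESeq2 1.42.0, limma 3.58.1 (voom with quality weights, so that test and weighting changed together), other scalings, filters and thresholds, a contractile score (mean log2 CPM of 24 genes) as a covariate, the top transcript, removal of each library's GC trend (loess, span 0.3) and libraries left out. The exclusion of A8 with A24 was added after the data were seen. TPM used GENCODE M21 transcript lengths, with which 103635 of 105129 identifiers matched. Python 3.11.15 was used for permutation tests. The test scripts were tried on simulated counts. Named genes are the 10 members, pathway genes past the threshold, with groups that do not overlap or with the 2 highest mean CPM of a list, the most abundant gene of each marker list, Ucp1, Adipoq, Acta1, Atp2a1, Ryr1 and Elavl1, and for members past the threshold or above 1 in log2 fold change the 3 genes with the highest r. Genes of these lists past the threshold in another test, markers past it or with groups that do not overlap, and Kdr were named after their values were seen. Of these, 1 gene is not reported here. The members and lists were chosen with earlier results of these data known. Totals ran from 17558090 to 67498055 counts, and intervals cover the spread between libraries and counting error but not the division of reads between transcripts.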

Additional observations from a re-analysis of the deposited data

Results flagged for a closer look

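One of 23 values examined in the 5 libraries labelled HuR KO had a sample far from the others by Dixon's criterion, which chance meets in about 1 in 20. It was the summed level of the skeletal muscle contractile apparatus, at 479 CPM in A31 against 38.2 to 57.2 CPM in A24, A25, A26 and A29. The levels of the 10 pump, release and entry genes were among the 23 values, and none of them stood apart in this way in a library labelled HuR KO.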

How the results depend on the processing

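No pump, release or entry gene passed the threshold in any of 23 settings, and 6 of 10 kept 1 direction throughout. The count of genes past the threshold in all was less stable than that, at 105 by edgeR's quasi-likelihood test, 818 by DESeq2's Wald test, 655 by edgeR's likelihood ratio test, 15 with the contractile score as a covariate, 16 with the top transcript in place of the gene sum, 55 without the GC trend, 5 without A24 and A25, 4 without A7, A8 and A31, which leaves 1 library labelled WT that is assumed to vary like the others, and 202 without A8 and A24. Leaving out 1 library at a time gave 10 (A26) to 190 (A12), with 13 without A7, 15 without A25, 14 without A29 and 17 without A31. Fewer libraries give fewer degrees of freedom; the cause of the other shifts was not tested. Directions turned where the log2 fold change was near 0: for Atp2a2 to 0.03 with total counts and 0.09 with the top transcript, for Itpr1 to 0.05 with total counts, for Stim1 to −0.05 without the GC trend, and for Orai3 to −0.02 (limma voom), −0.09 (without A24 and A25), −0.11 (contractile score), −0.07 (GC trend), −0.22 (without A7, A8 and A31) and −0.06 (without A8 and A24). Leaving out 1 library gave −0.34 to 0.13 for Atp2a2, −0.36 to 0.07 for Itpr1, −0.01 to 0.10 for Stim1 and −0.11 to 0.21 for Orai3. The share of the top Stim2 transcript differed by −4.57 percentage points, and by 4.34 without A24 and A25. No paired analysis was possible because the groups share no replicate numbers. Depth limits Ryr2 most, with 12 counts in A24 and 61 in A25.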
